A study of Mus musculus with 6 samples.

Results

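The 2 libraries of replicate number 2, called occasion 2 hereafter, were compared with the 4 libraries of occasions 1 and 3, out of 6 libraries from sorted 4T1-T cells. The 4T1-T line is 1 sub-clone of the mouse 4T1 mammary carcinoma that the study classes as proficient in vasculogenic mimicry (VM), the formation of vessel-like channels by tumor cells. Cells were starved of serum overnight, given acetylated low-density lipoprotein (acLDL) coupled to Alexa-488 at 10 ug/mL for 4 h, returned to complete medium for 1 h, and sorted into the brightest 25% (acLDL-high) and the dimmest 25% (acLDL-low). Poly(A) RNA of both gates was sequenced with a stranded kit. All 6 libraries thus share the clone, the starvation and the lipoprotein, no library of unfed or unsorted cells was analysed here, and occasion 2 is 1 acLDL-high library and its acLDL-low partner, as are occasions 1 and 3.

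Occasion 2 was selected on measured values, the RNA levels over all genes, because its libraries lay apart from the others in earlier work on these counts. The differences given for it are therefore descriptions and carry no p-value. The labels give only a replicate number, and the word occasion rests on the counts: deviations from the gate means correlated across genes at 0.795, 0.846 and 0.799 between acLDL-high and acLDL-low libraries of the same number, and at -0.557 to -0.0882 between libraries of different numbers. Deviations from a gate mean cancel within that gate, so the negative correlations follow in part from the positive ones. Whether a number marks a culture, a sort day or a round of library preparation cannot be told apart. The libraries of an occasion are linked, so occasion 2 counts as 1 replicate number set against 2.

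Cells enter S phase once cyclin E and CDK activity release the E2F factors, which switch on the genes that license origins, load the MCM helicase and supply deoxynucleotides. Cells short of oxygen stabilise HIF1A and induce genes for carbonic anhydrase, prolyl hydroxylases, mitophagy and glycolysis. Interferons and NF-kB drive antigen presentation, antiviral genes and cytokines, and serum given back to starved cells triggers a burst of immediate early genes.

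Library totals lay between 70263372 and 94216786 counts, and those of occasion 2 were within that range. Levels are given as CPM, counts scaled to 1000000 per library, and 3 counts corresponded to 0.0318 to 0.0427 CPM, a limit set by counting error alone. The 10 most abundant genes took 6.84% to 6.90% of the counts in occasion 2 and 8.02% to 8.40% elsewhere, the mitochondrial genome took 3.63% against 5.03% to 6.02%, and ribosomal protein genes took 3.91% to 4.05% against 3.09% to 3.38%. The 9 carcinoma markers, Epcam, Cdh1, keratins and claudins, were detected in every library. Of 12 leukocyte markers 10 were under 1 CPM in every library, among them Adgre1, Tyrobp and C1qa at 0, as were 6 of 7 fibroblast markers, with Lum, Dpt and Thy1 at 0, and 10 of 11 endothelial markers, with Emcn, Ptprb, Robo4 and Cldn5 at 0. Summed over the tested markers, leukocyte genes, nearly all of it Cd68 and Cd14, lay at 16.4 to 17.2 CPM in occasion 2 and 19.2 to 22.3 CPM elsewhere. Fibroblast genes, nearly all of it Pdgfra, lay at 28.1 to 28.6 against 36.4 to 43.4 CPM. Endothelial genes, with Tie1 the largest part, lay at 2.59 to 3.06 against 1.69 to 2.24 CPM. Of the 5 leukocyte markers tested, Fcer1g stood apart downward and Ptprc upward, both under 1 CPM. Ptprc was at 0.146 to 0.219 CPM in occasion 2 and 0 to 0.0637 CPM elsewhere. In bulk RNA, fewer cells of a type and less RNA per cell cannot be told apart.

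Of 15973 protein-coding genes compared by the authors, 12572 passed edgeR's filter on low counts. Values below are CPM on TMM-scaled library sizes, acLDL-high first and acLDL-low second, and a difference is the mean log2 CPM of occasion 2 minus the mean of occasions 1 and 3 (prior count 2). A gene stood apart when that difference was at least 2-fold and both libraries of occasion 2 lay beyond all 4 others. By this rule 224 genes stood apart upward (1.78% of those tested) and 911 downward (7.25%). Low genes made up most of the second number: among the 9170 genes with a mean log2 CPM of at least 3, 110 stood apart upward and 209 downward. Without the 2-fold limit, both libraries of occasion 2 lay above all others for 3879 genes (30.9%) and below them for 3607 (28.7%). The counts given below for gene lists are to be read beside these shares. The same rule put 635 genes apart for occasion 1 (5.05%) and 536 for occasion 3 (4.26%).

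Over all genes occasion 2 lay farthest from the others, which restates the values it was selected on and adds no support. The root mean square difference in log2 CPM was 0.731 to 0.757 between libraries of occasions 1 and 2, 0.730 to 0.757 between occasions 2 and 3, 0.533 to 0.566 between occasions 1 and 3, and 0.306 to 0.350 between the gates of 1 occasion. Over all genes tested, the median absolute difference was 0.31 for occasion 2, 0.20 between occasions 1 and 3, and 0.094 between the gates of occasion 2. Across genes, the difference had a Spearman correlation of -0.058 with GC content and of -0.058 with exon length, over genes that share the same libraries.

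**Figure D1:**
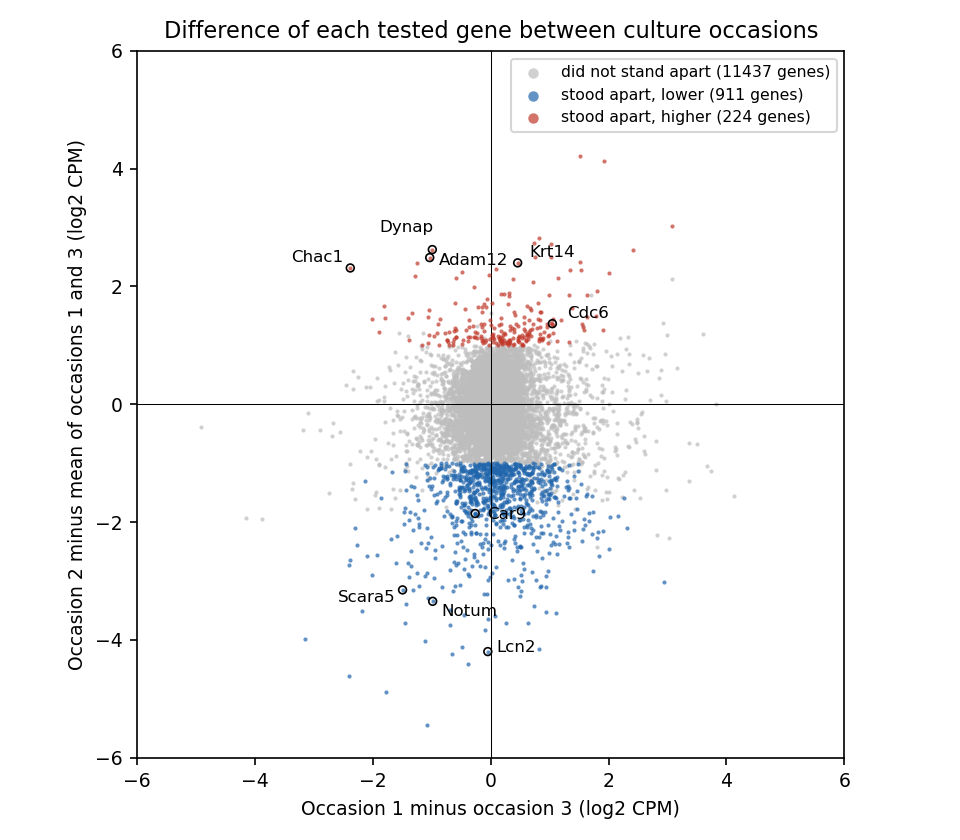
Each point is 1 of the 12572 genes tested, placed by its difference between occasions 1 and 3 (horizontal) and between occasion 2 and the mean of the other occasions (vertical), both in log2 CPM; red and blue points are the 224 and 911 genes that stood apart upward and downward, the rule that chose them leaves a band around 0 empty of color, and circled genes are described in the text. Lcn2 lay at -4.20 on the vertical axis and near 0 on the horizontal one, whereas Chac1 differed on both.

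Genes of the G1/S transition and DNA replication were higher in occasion 2 as a group. Of the 27 genes in the list, all of them tested, 13 stood apart upward and none downward, and 26 lay above all other libraries at any size. Among all genes tested, 1.78% stood apart upward and 30.9% lay above all other libraries. The median difference of the list was 0.98, against -0.01 for all genes tested. The exception was Ccne2, cyclin E2, whose occasion 1 value of 37.8 and 30.9 CPM overlapped 27.6 and 36.9 CPM in occasion 2.

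The MCM genes encode the helicase that is loaded at origins. Mcm3 was at 373 and 427 CPM in occasion 2, 199.6 and 173 CPM in occasion 1 and 133 and 136 CPM in occasion 3, a difference of 1.33. Mcm5 was at 405 and 457 CPM in occasion 2, 214 and 188 CPM in occasion 1 and 158 and 162 CPM in occasion 3, a difference of 1.27. Every MCM subunit was highest in both libraries of occasion 2, and 5 of the 6, Mcm2 to Mcm6, stood apart, whereas Mcm7 had a difference of 0.68.

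Among the licensing factors that load MCM, Cdc6 had the largest difference of the list, 1.37, at 63.6 and 82.5 CPM in occasion 2, 44.7 and 36.3 CPM in occasion 1 and 19.00 and 20.01 CPM in occasion 3. Cdt1 was at 159 and 189 CPM against 77.7 and 80.2 CPM in occasion 1 and 70.6 and 84.9 CPM in occasion 3. Cdc6 differed by 1.05 between occasions 1 and 3 as well, so its 3 occasions were all distinct, whereas Cdt1 was alike in the other occasions.

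Enzymes of deoxynucleotide supply followed. Rrm2, the regulated subunit of ribonucleotide reductase, was at 273 and 282 CPM in occasion 2, 177 and 132 CPM in occasion 1 and 105 and 90.1 CPM in occasion 3. Tyms, thymidylate synthase, was at 72.4 and 71.5 CPM against 36.4 and 31.2 CPM in occasion 1 and 31.7 and 30.04 CPM in occasion 3, and Rrm1 differed by 1.00. Mcm6 lay just inside the 2-fold limit at 1.00, and Fen1, the flap endonuclease of replication, outside it at 0.94.

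At the fork, Lig1, DNA ligase 1, was at 167 and 181 CPM in occasion 2 against 91.5 and 74.6 CPM in occasion 1 and 70.1 and 70.2 CPM in occasion 3; its exons overlap a gene of the other strand, and the strand setting of the counting is not given in the sources used here. Pcna, the sliding clamp, was at 209 and 245 CPM against 151 and 132 CPM in occasion 1 and 116 and 111 CPM in occasion 3. Uhrf1 and Gins1 also stood apart. The E2F genes themselves were closer to the other libraries, E2f1 at 0.54 and E2f2 at 0.41. Dna2, a nuclease and helicase of replication that is not in the list, was among the 12 largest increases of well-expressed genes, at 22.6 and 24.97 CPM against 7.14 and 7.10 CPM in occasion 1 and 5.36 and 6.10 CPM in occasion 3.

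Promoter sequence was read for the replication genes that stood apart, because they moved together, from RefSeq windows on GRCm38.p6 that held 11 of the 13 genes. The 250 bases before the most upstream start were searched on both strands for E2F-type letters, TTTGGCGC, TTTCCCGC, TTTCGCGC or TTTGCCGC, a search chosen after the values were seen. Cdc6, Mcm5 and Mcm6 held a match, 3 of 11, as did 2 of the 11 other list members with a window, 3.54% of 9850 tested genes and 1.92% of all 27025 genes with one. Matches that overlap on opposite strands are counted separately, and a match is a description of letters, not a bound site. The last 160 bases before the start of these 3 genes are given 5′ to 3′ on the gene's strand, with matches in capitals.
Cdc6 (chr11:98907991-98908150, + strand): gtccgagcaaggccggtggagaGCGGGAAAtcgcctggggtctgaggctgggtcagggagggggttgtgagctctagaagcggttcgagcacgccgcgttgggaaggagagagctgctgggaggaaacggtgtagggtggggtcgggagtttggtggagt
Mcm5 (chr8:75109349-75109508, + strand): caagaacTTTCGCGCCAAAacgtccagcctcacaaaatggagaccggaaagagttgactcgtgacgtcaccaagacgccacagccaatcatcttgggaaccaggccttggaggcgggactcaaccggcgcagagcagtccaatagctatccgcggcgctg
Mcm6 (chr1:128359706-128359865, - strand): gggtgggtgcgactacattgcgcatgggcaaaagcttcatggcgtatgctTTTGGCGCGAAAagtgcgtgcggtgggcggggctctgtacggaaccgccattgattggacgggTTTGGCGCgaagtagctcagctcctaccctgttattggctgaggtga

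Mitotic genes overlapped for the most part. Of 25 G2/M genes none stood apart and 4 lay above all other libraries, where 30.9% of all genes tested lay above. Their median difference was 0.12, from -0.0015 without occasion 3 to 0.29 without occasion 1. Birc5, survivin, had the largest difference at 0.51, with 185 and 155 CPM in occasion 2 against 125 and 109.7 CPM in occasion 1 and 129 and 111 CPM in occasion 3, and Nusap1, a spindle protein, the lowest at -0.62. These genes differed between the gates: edgeR's quasi-likelihood test within occasions, with Benjamini-Hochberg adjustment over all genes, called 18 of the 25 higher in acLDL-high cells, where 3.43% of all genes were called higher and 1.32% lower. Of the 27 replication genes it called none higher and 2 lower. Among 23 replication-dependent histone genes tested of 61, whose transcripts lack a poly(A) tail, 2 stood apart upward and 4 downward, at levels mostly under 1 CPM. Of 17 growth arrest and p53 target genes, Sesn2 stood apart upward and Trp53inp1 downward, at 6.69 and 6.91 CPM against 28.3 and 32.6 CPM in occasion 1 and 31.9 and 32.4 CPM in occasion 3.

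Oxygen-regulated genes lay on the other side. Of 30 HIF-responsive genes 27 were tested, and 8 stood apart downward and none upward; 18 lay below all other libraries, Ddit4 alone lay above them, and 8 overlapped. The median difference was -0.71. Among all genes tested, 7.25% stood apart downward and 28.7% lay below all other libraries.

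Car9, the cell-surface carbonic anhydrase IX that exports acid, had the largest difference among them. It was at 86.1 and 119.8 CPM in occasion 2, 329 and 341 CPM in occasion 1 and 383 and 423 CPM in occasion 3, 3.61-fold lower. The 4 other libraries lay between 329 and 423 CPM, and the gates of occasion 2 differed from each other, with acLDL-high the lower. Foxc2, the transcription factor that the study ties to VM, and Car9, which the study names among its targets, were both lower: Foxc2 was at 23.9 and 28.7 CPM in occasion 2, 44.3 and 40.2 CPM in occasion 1 and 46.6 and 53.9 CPM in occasion 3, a difference of -0.81 without overlap. Of the 5 core FOXC2-target genes named in the study, Plscr4, a phospholipid scramblase, also stood apart downward, at -1.42, Csgalnact1 and Pros1 overlapped the other libraries, at -0.69 and -0.21, and Emp3 lay above them, at 0.40.

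The prolyl hydroxylases that mark HIF1A for degradation are themselves HIF-responsive. Egln3 was at 62.5 and 85.4 CPM in occasion 2 against 214 and 207 CPM in occasion 1 and 141 and 128 CPM in occasion 3, a difference of -1.20, and Egln1 was at 61.9 and 73.3 CPM against 116 and 115 CPM in occasion 1 and 106 and 105 CPM in occasion 3, a difference of -0.71. For both, occasion 2 lay below all other libraries. Bnip3, a mitophagy receptor, was at 28.3 and 42.5 CPM against 78.5 and 81.7 CPM in occasion 1 and 68.2 and 63.3 CPM in occasion 3, and its relative Bnip3l differed by -0.55.

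Of metabolic HIF-responsive genes, Pdk1 encodes a kinase that inhibits pyruvate dehydrogenase. It was at 40.4 and 52.6 CPM in occasion 2, 97.5 and 96.1 CPM in occasion 1 and 95.7 and 94.96 CPM in occasion 3. Ak4, a mitochondrial adenylate kinase, was at 25.6 and 34.8 CPM against 73.9 and 71.3 CPM in occasion 1 and 52.2 and 50.9 CPM in occasion 3. Ero1l, a disulfide oxidase, was the member nearest the 2-fold limit from inside at -1.002, and Narf the nearest outside at -0.96. Adm and Ankrd37 also stood apart, both under 12 CPM in every library, and the exons of Car9, Bnip3 and Ankrd37 overlap a gene of the other strand. Vegfa, the angiogenic ligand, overlapped, at 152 and 138 CPM against 152 and 135 CPM in occasion 1 and 230.1 and 208 CPM in occasion 3, with occasions 1 and 2 alike.

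The window before the start held the hypoxia response core, ACGTG or GCGTG on either strand, in 7 of the 7 HIF-responsive genes that stood apart and had a window, in 10 of 14 other list members, and in 57.0% of tested genes, so that the letters are common. Car9, Bnip3 and Pdk1 are shown as the examples described above, again as the last 160 bases before the start with matches in capitals.
Car9 (chr4:43506866-43507025, + strand): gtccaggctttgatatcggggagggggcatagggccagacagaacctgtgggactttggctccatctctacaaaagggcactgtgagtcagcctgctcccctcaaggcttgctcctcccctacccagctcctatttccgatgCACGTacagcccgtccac
Bnip3 (chr7:138909507-138909666, - strand): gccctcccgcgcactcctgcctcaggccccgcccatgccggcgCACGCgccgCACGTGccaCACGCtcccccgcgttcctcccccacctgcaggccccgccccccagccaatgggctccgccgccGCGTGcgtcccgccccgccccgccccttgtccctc
Pdk1 (chr2:71873064-71873223, + strand): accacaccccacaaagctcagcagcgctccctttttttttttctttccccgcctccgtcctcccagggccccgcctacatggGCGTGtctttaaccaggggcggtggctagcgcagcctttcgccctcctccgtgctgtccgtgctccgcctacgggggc

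Glycolysis genes had smaller differences. Of 21 genes, only Aldoc stood apart, at 17.6 and 18.7 CPM against 50.9 and 49.4 CPM in occasion 1 and 64.05 and 63.1 CPM in occasion 3; 12 lay below all other libraries, and the median difference was -0.23. Slc2a1, the glucose transporter GLUT1, was at 258 and 324 CPM against 415 and 379 CPM in occasion 1 and 416 and 404 CPM in occasion 3, a difference of -0.48. Ldha, Pkm and Gapdh overlapped, with differences of -0.03, 0.05 and 0.08. The HIF subunits moved little: Hif1a differed by -0.25 and Arnt by 0.09, and Epas1, which encodes HIF2A, had at most 2 counts in any library.

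**Figure D2:**
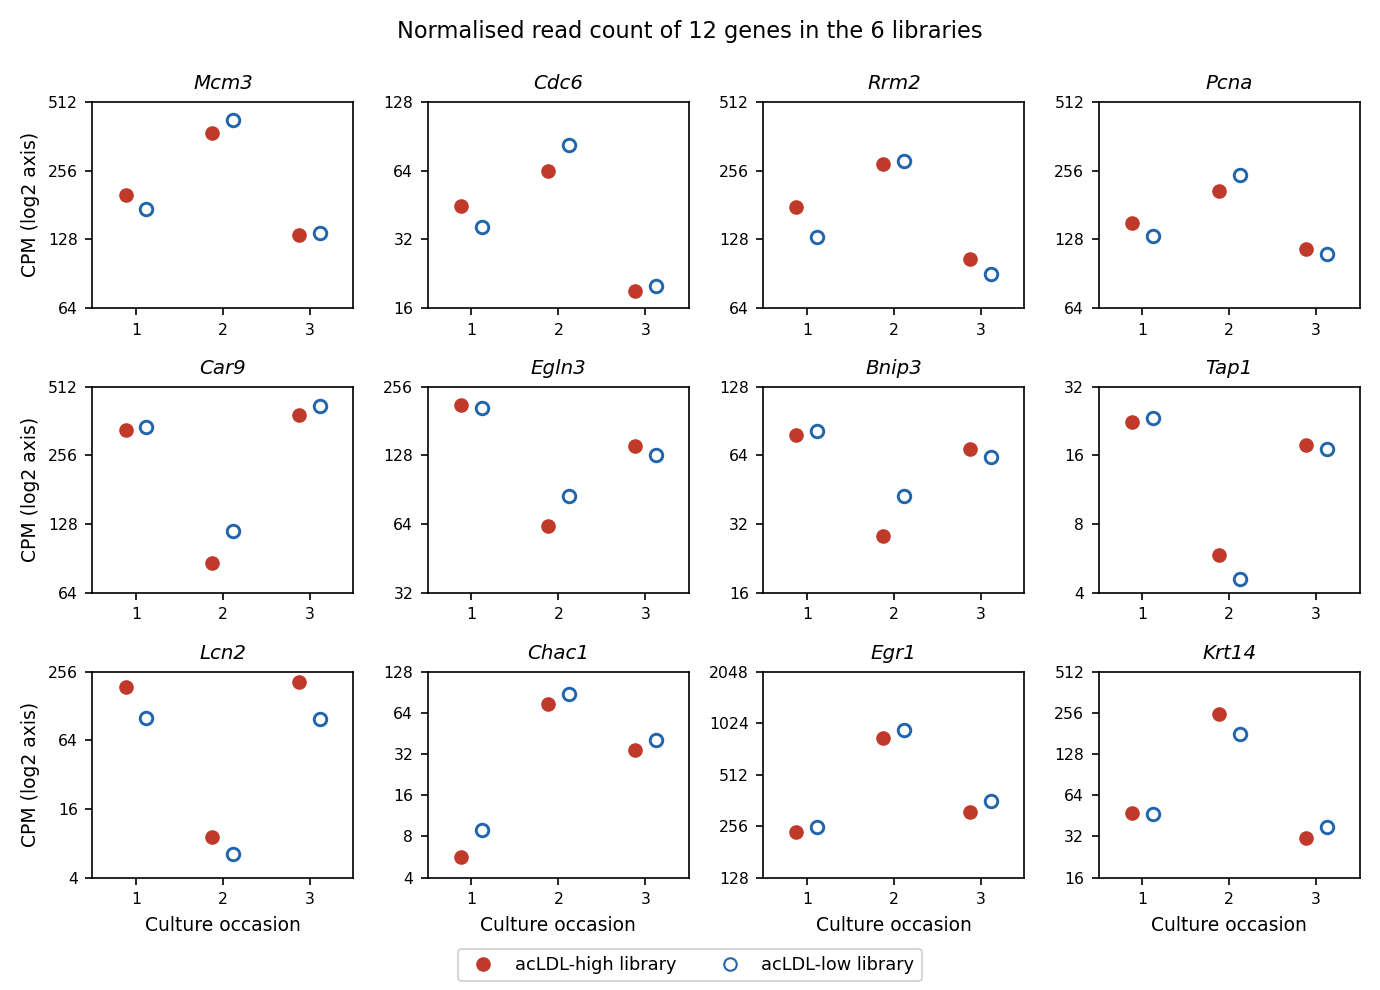
CPM of 12 genes in the 6 libraries on a log2 axis that differs between panels, by occasion, with filled points for acLDL-high and open points for acLDL-low libraries. Mcm3, Cdc6, Rrm2, Pcna, Chac1, Egr1 and Krt14 were highest in both libraries of occasion 2 and Car9, Egln3, Bnip3, Tap1 and Lcn2 lowest. For every gene shown except Lcn2, the libraries of occasions 1 and 3 did not overlap each other either.

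Genes of ribosomes and mitochondria made small but uniform differences. Of 82 cytosolic ribosomal protein genes tested, 81 lay above all other libraries and none reached 2-fold, with a median difference of 0.39 and a range of 0.09 to 0.93; removing each library's trend on gene length lowered the median to 0.32. Rps2 had the highest, although its exons overlap other genes on both strands, at 1358 and 1419.7 CPM against 770.1 and 767 CPM in occasion 1 and 684 and 699.7 CPM in occasion 3. Of 78 nuclear-encoded subunits of the respiratory chain 69 lay above and 3 below, with a median of 0.44, and Cycs, cytochrome c, was at 87.8 and 87.2 CPM against 59.2 and 55.3 CPM in occasion 1 and 43.2 and 41.8 CPM in occasion 3. The mitochondrial genome went the other way: of 10 genes tested, 6 lay below and none above, with a median of -0.45. mt-Cytb was at 8898 and 8723 CPM in occasion 2, 14567 and 13783 CPM in occasion 1 and 12490.0 and 12143 CPM in occasion 3, and mt-Co2, mt-Atp6 and mt-Nd4l were under 1 CPM in every library, as counted. Since the ribosomal protein and mitochondrial shares of each library are parts of 1 total, these values are relative to the rest of the library.

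Immediate early genes, which serum induces within an hour, were mixed. Of 25 genes 8 stood apart upward and Egr3 downward, 12 overlapped, and the median difference was 0.49, from 0.27 without occasion 1 to 0.83 without occasion 3. Egr1 was at 835 and 929 CPM in occasion 2, 237 and 254 CPM in occasion 1 and 308 and 359 CPM in occasion 3, a difference of 1.62. Atf3 was at 242 and 225 CPM against 43.9 and 46.3 CPM in occasion 1 and 188 and 131 CPM in occasion 3, so that its lowest occasion was the first. Fos was highest in occasion 3, at 327 and 222 CPM, with 190.4 and 188 CPM in occasion 2 and 87.4 and 57.5 CPM in occasion 1. Egr3 was at 22.5 and 20.2 CPM against 37.6 and 23.6 CPM in occasion 1 and 77.3 and 53.4 CPM in occasion 3, and Dusp6, the ERK phosphatase, lay below all other libraries at 158 and 178 CPM against 408 and 311 CPM in occasion 1 and 322 and 244 CPM in occasion 3.

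Oxidative and protein stress genes were mostly higher. Of 16 NRF2 targets 13 lay above all other libraries and 3 stood apart, with a median difference of 0.48. Hmox1, haem oxygenase 1, was at 68.1 and 83.5 CPM against 26.3 and 38.8 CPM in occasion 1 and 37.7 and 37.2 CPM in occasion 3, and Nqo1, a quinone reductase, at 52.7 and 51.6 CPM against 23.1 and 19.8 CPM in occasion 1 and 30.6 and 21.95 CPM in occasion 3. Ftl1, ferritin light chain, also stood apart, at 1.17, although its exons overlap those of other genes on both strands. Of 22 chaperone genes 17 lay above and none stood apart, with Hspe1, the mitochondrial chaperonin 10, at 115 and 117 CPM against 63.9 and 62.00 CPM in occasion 1 and 55.1 and 54.1 CPM in occasion 3.

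The ATF4 list, the amino acid stress response, held genes in both directions. Of 23 genes 2 stood apart upward and 2 downward, 10 lay above all other libraries and 5 below at any size, and the median difference was 0.10, from -0.016 without occasion 1 to 0.33 without occasion 3. Chac1, which degrades glutathione, was at 74.4 and 88.04 CPM in occasion 2, 5.64 and 8.93 CPM in occasion 1 and 34.2 and 40.5 CPM in occasion 3. Atf4 itself was at 548 and 602 CPM against 221 and 266 CPM in occasion 1 and 344 and 372 CPM in occasion 3, without overlap and under 2-fold, whereas Atf5 and the lipoprotein receptor gene Vldlr stood apart downward, Atf5 at 106 and 119 CPM against 209 and 212 CPM in occasion 1 and 235 and 271 CPM in occasion 3. Asns, asparagine synthetase and a common readout of this response, overlapped at 0.03.

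Transcripts of genes for antigen presentation by MHC class I were mostly lower. Of 12 genes tested 5 stood apart downward and 11 lay below all other libraries, with a median difference of -0.90. Tap1 and Tap2 form the transporter that brings peptides into the endoplasmic reticulum. Tap1 was at 5.87 and 4.62 CPM in occasion 2, 22.4 and 23.2 CPM in occasion 1 and 17.8 and 17.1 CPM in occasion 3, and Tap2 at 28.6 and 25.8 CPM against 90.7 and 88.9 CPM in occasion 1 and 65.1 and 66.6 CPM in occasion 3. The immunoproteasome subunits Psmb8 and Psmb9 and the nonclassical molecule H2-T23 stood apart as well. Nlrc5, the transactivator of the class I genes, was just outside at -0.97, and B2m, H2-D1 and H2-K1 were lower by less, at -0.68, -0.53 and -0.48. Psmb10 was the exception, overlapping at 35.6 and 30.5 CPM against 31.05 and 27.1 CPM in occasion 1 and 20.1 and 20.3 CPM in occasion 3. Exons of Tap1, Tap2, Psmb8 and Psmb9 overlap those of genes on the other strand.

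Interferon-stimulated genes were lower or overlapped, with 1 exception. Of 29 tested, 8 stood apart downward. At any size 12 lay below all other libraries, 1, Oasl1, lay above them, and 16 overlapped. Among all genes tested 7.25% stood apart downward, most of them low genes, and 28.7% lay below. The median difference of the list was -0.59, but -0.21 among those with a mean log2 CPM of at least 3. Irf9, the DNA-binding subunit of ISGF3, was at 9.69 and 11.99 CPM against 19.2 and 20.4 CPM in occasion 1 and 23.3 and 25.2 CPM in occasion 3, and Ifi44 at 1.45 and 1.51 CPM against 3.54 and 3.49 CPM in occasion 1 and 7.92 and 7.53 CPM in occasion 3. Isg15 differed by -0.02 and Ifit1 by -1.46 with overlap between occasions 1 and 2. Usp18 and Mx1 also stood apart but were under 2 CPM in every library, and Mx1 had no count in occasion 2. Against occasion 3 alone the median was -0.82 and against occasion 1 alone -0.31.

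Among inflammatory genes the difference depended on the gene. Lcn2, the secreted siderophore-binding lipocalin 2, had the largest difference of all well-expressed genes. It was at 9.07 and 6.42 CPM in occasion 2, 189 and 101 CPM in occasion 1 and 206 and 99.1 CPM in occasion 3, 18.3-fold lower. C3 of complement and Icam1, the leukocyte adhesion molecule, also stood apart downward, at -1.34 and -1.01. The NF-kB inhibitors Nfkbia and Tnfaip3, which NF-kB induces, lay above all other libraries instead, at 0.92 and 0.84, and the subunit genes Rela, Nfkb1 and Nfkb2 had differences of -0.12, 0.09 and 0.10.

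Of 18 genes of cytokines and prostaglandin synthesis 5 stood apart downward and 1 upward. Tslp, thymic stromal lymphopoietin, was at 41.99 and 35.9 CPM in occasion 2, 161 and 94.6 CPM in occasion 1 and 140.3 and 87.05 CPM in occasion 3. Csf3, granulocyte colony-stimulating factor, was at 125 and 118 CPM against 325 and 191 CPM in occasion 1 and 308 and 229 CPM in occasion 3. Il11 and Il18 were also lower. Prostaglandin synthesis split between its steps: Ptgs2, cyclooxygenase 2, was at 3001 and 2378 CPM against 1332 and 878 CPM in occasion 1 and 1426 and 960.4 CPM in occasion 3, and Ptges, the terminal prostaglandin E synthase, at 23.8 and 26.4 CPM against 91.7 and 65.9 CPM in occasion 1 and 117 and 92.02 CPM in occasion 3.

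Chemokines set occasion 1 apart rather than occasion 2. The median difference over 13 genes was 0.01, made of -1.43 against occasion 1 and 0.74 against occasion 3. Ccl2 was at 27.2 and 13.4 CPM in occasion 2, 134 and 69.6 CPM in occasion 1 and 16.7 and 5.27 CPM in occasion 3, and Cxcl5 at 34.6 and 17.1 CPM against 191 and 89.1 CPM in occasion 1 and 17.9 and 7.46 CPM in occasion 3. Both were intermediate in occasion 2. Cxcl10 stood apart upward, at 16.99 and 10.9 CPM against 5.30 and 3.17 CPM in occasion 1 and 6.05 and 3.46 CPM in occasion 3, and Cx3cl1, fractalkine, downward, at 44.1 and 41.99 CPM against 133 and 103 CPM in occasion 1 and 143 and 114 CPM in occasion 3.

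**Figure D3:**
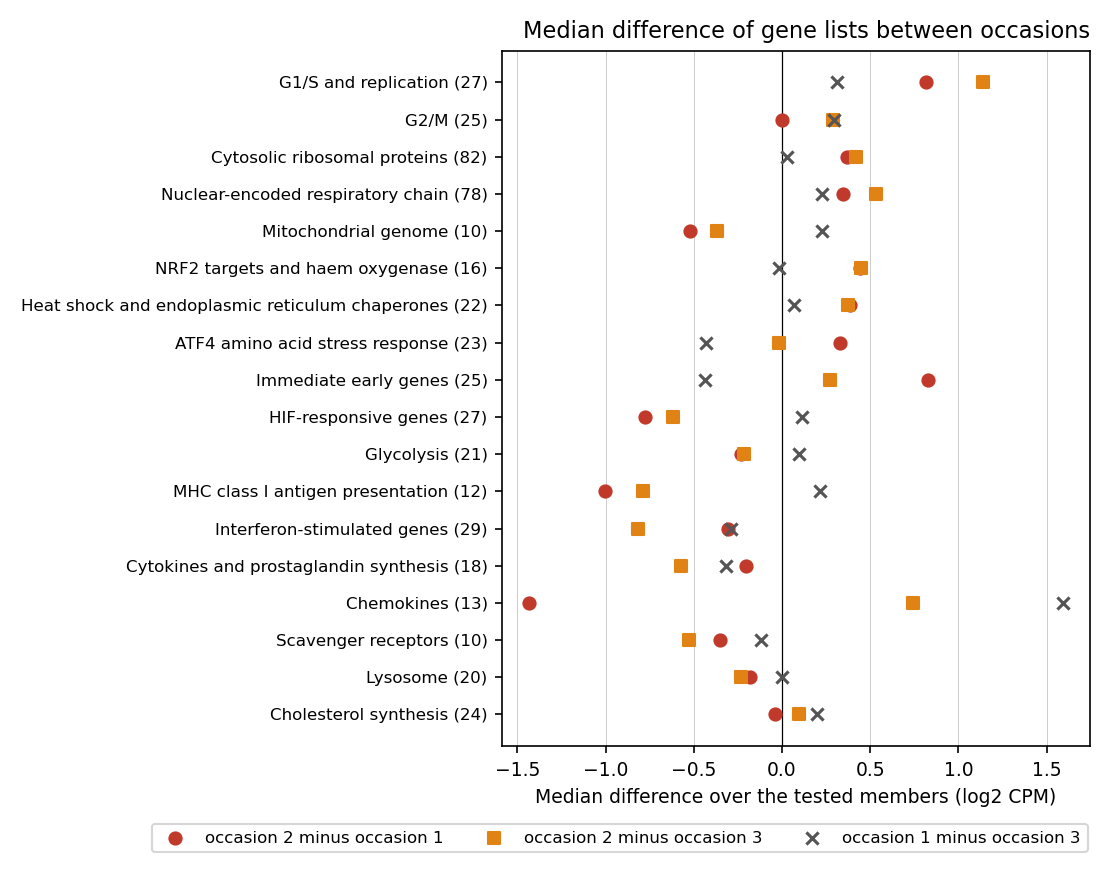
Median difference in log2 CPM over the tested members (number in brackets) of 18 gene lists, for occasion 2 minus occasion 1 (circles), occasion 2 minus occasion 3 (squares) and occasion 1 minus occasion 3 (crosses). For most lists shown, both comparisons of occasion 2 lay on the same side and farther from 0 than the crosses. The exceptions were the G2/M, ATF4, immediate early, cytokine, chemokine and cholesterol synthesis lists. For chemokines the cross lay farthest out at 1.59.

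Matrix and surface genes were heterogeneous. Of 32 matrix and protease genes 3 stood apart upward and 6 downward, and the median difference was -0.15. Col6a1, a collagen VI chain, was at 42.3 and 38.6 CPM in occasion 2, 180.0 and 159 CPM in occasion 1 and 151 and 145 CPM in occasion 3. Spp1, osteopontin, was at 665 and 662 CPM against 1752 and 1269.9 CPM in occasion 1 and 3002 and 2098 CPM in occasion 3, and the collagenase Mmp13 also stood apart downward. Plau, the urokinase plasminogen activator, stood apart upward at 576 and 484 CPM against 228 and 166 CPM in occasion 1 and 335 and 253 CPM in occasion 3, as did Postn and Tnc, periostin and tenascin C.

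Keratins made up the epithelial genes that stood apart upward. Krt14, a keratin of basal cells, was at 249 and 179.8 CPM in occasion 2 against 47.1 and 46.7 CPM in occasion 1 and 31.1 and 37.7 CPM in occasion 3. Krt7, a keratin of simple epithelia, was at 1266 and 1117 CPM against 422 and 357 CPM in occasion 1 and 496 and 507 CPM in occasion 3, and Krt80 stood apart as well. Krt8 and Krt18 lay above all other libraries at 0.49 and 0.52, while Krt19 lay below them at -0.58. Epcam and Cdh1 overlapped at -0.07 and 0.07. Of 30 epithelial genes 3 stood apart upward and 2, the epithelial transcription factors Ehf and Ovol1, downward. The shares over all genes tested were 1.78% upward and 7.25% downward.

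Some scavenger receptors bind modified lipoprotein, the kind of label the cells were sorted by. Which members of this list bind acLDL was not tested. Of 10 scavenger receptor genes tested 3 stood apart downward. Scara5, a class A scavenger receptor, was at 3.23 and 2.51 CPM in occasion 2, 16.98 and 13.5 CPM in occasion 1 and 47.5 and 38.6 CPM in occasion 3, and Lrp1, a large endocytic receptor, at 386 and 379 CPM against 632 and 618 CPM in occasion 1 and 1015 and 1118 CPM in occasion 3. The third, Scarf1, was under 1 CPM in every library. Scarb1, the receptor for high-density lipoprotein, lay above all other libraries at 0.47. Of 20 lysosomal genes 10 lay below and none above, with a median of -0.26, and Lipa, the acid lipase that frees cholesterol from lipoprotein, was at 12.6 and 11.1 CPM against 25.5 and 24.1 CPM in occasion 1 and 22.5 and 19.2 CPM in occasion 3. Cholesterol synthesis had a median of 0.05, with 6 of 24 genes above and 2 below. Among all genes tested 30.9% lay above and 28.7% below, shares that the cholesterol synthesis genes did not exceed. The gates took the brightest and dimmest 25% on each occasion, so the dye taken up cannot be compared between occasions from these data.

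Angiogenic ligands were lower or overlapping. Of 11 tested 3 stood apart downward: Angpt1, a ligand of TIE2, at 3.59 and 3.35 CPM in occasion 2 against 30.8 and 22.8 CPM in occasion 1 and 7.56 and 5.66 CPM in occasion 3, and Pgf and Pdgfc at -1.11 and -1.08. Angpt1 differed by 2.01 between occasions 1 and 3 as well. Of the 7 endothelial genes named in the study none stood apart. Flt1, VEGF receptor 1, lay below all other libraries at 74.4 and 78.7 CPM against 139 and 117 CPM in occasion 1 and 153 and 134 CPM in occasion 3, and Pecam1 and Cdh5 were under 1 CPM throughout.

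Among genes with a mean log2 CPM of at least 3, the 12 largest increases held Krt14, Chac1, Ccn2 and Dna2 of those above or of the lists, and 8 others. Dynap had the largest, at 203 and 171 CPM in occasion 2, 23.9 and 19.2 CPM in occasion 1 and 50.2 and 36.2 CPM in occasion 3. Adam12, a membrane metalloprotease, was at 63.4 and 38.03 CPM against 6.66 and 5.55 CPM in occasion 1 and 11.6 and 13.5 CPM in occasion 3, and Il24, a cytokine of the interleukin 10 family, at 101 and 91.9 CPM against 14.2 and 9.81 CPM in occasion 1 and 28.7 and 27.7 CPM in occasion 3. Has2, which makes hyaluronan, was at 551 and 518 CPM against 206 and 129 CPM in occasion 1 and 187 and 137 CPM in occasion 3. Rgs16, which shortens G protein signals, the kallikrein Klk10, the glutathione transferase Gsta4 and the annexin Anxa8 had differences of 2.29, 2.12, 1.85 and 1.70. Ccn2, a matricellular target of YAP and SRF, was at 229 and 149 CPM against 107 and 76.03 CPM in occasion 1 and 38.1 and 22.1 CPM in occasion 3, while the 17 tested genes of its list had a median of 0.29, from 0.15 without occasion 3 to 0.46 without occasion 1.

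The 12 largest decreases were led by Lcn2. Notum, an enzyme that inactivates WNT proteins, was at 1.93 and 1.49 CPM in occasion 2, 12.9 and 11.9 CPM in occasion 1 and 24.96 and 24.2 CPM in occasion 3. Sned1, a matrix protein, was at 11.8 and 10.6 CPM against 114 and 118 CPM in occasion 1 and 75.1 and 62.2 CPM in occasion 3, and Gpnmb, a transmembrane glycoprotein, at 6.52 and 7.14 CPM against 69.4 and 85.9 CPM in occasion 1 and 22.1 and 20.9 CPM in occasion 3. Serpine2, protease nexin 1, was the decrease with the highest counts, at 40.4 and 43.8 CPM against 242 and 175 CPM in occasion 1 and 270.0 and 200.2 CPM in occasion 3. Scara5, Tnxb, Dmp1, Ace, Pyroxd2, Gbp9 and Unc13a made up the rest, with differences of -3.15, -2.81, -2.75, -2.49, -2.43, -2.40 and -2.38.

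The comparison between gates uses differences within occasions, which the difference between occasions does not, although both libraries of occasion 2 enter the fit. Within occasions, with the replicate number as a block, edgeR called 431 genes higher in acLDL-high cells (3.43%) and 166 lower (1.32%). Of the 224 genes that stood apart upward it called 18 higher and 5 lower (8.04% and 2.23%), of the 911 downward 54 and 10 (5.93% and 1.10%), and of the 11437 others 359 and 151 (3.14% and 1.32%). Among the named genes, Lcn2 differed between gates by 0.88 in log2 (SE 0.07, edgeR adjusted p = 3.72e-05) and Rgs16 by 0.65 (SE 0.05, edgeR adjusted p = 8.51e-06), both higher in acLDL-high in 3 of 3 occasions. Lcn2 differed by 0.91, 0.50 and 1.06 in occasions 1, 2 and 3, so its value was lowest in occasion 2. Car9 and Mcm3 did not pass, at -0.22 and -0.01 (adjusted p = 0.082 and 0.95 from edgeR), with Car9 at -0.05, -0.48 and -0.14 in occasions 1, 2 and 3. These calls rested on occasion 3 more than on occasion 2, since 126 of 12421 genes were called without the former and 869 of 12478 without the latter. Without the block edgeR called 0 genes, with 45 at an unadjusted p under 0.05, where DESeq2 with the block called 505.

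Whether the difference between gates was itself unlike in occasion 2 was tested with an interaction term, which left 1 residual degree of freedom. Its p-values therefore rested mostly on variance shared across genes, not on repeats of occasion 2. EdgeR called 81 genes (0.644%), 32 with a positive and 49 with a negative interaction. A negative interaction is a lower signed acLDL-high minus acLDL-low difference in occasion 2, which is not always a smaller gap between the gates. Of the 81, 11 had stood apart upward and 24 downward, where 1.78% and 7.25% of all genes tested did. The unadjusted p was under 0.05 for 900 genes. DESeq2 called 11 and edgeR on genes with at least 10 counts in every library 13, all among the 81, so the count depends on the tool and the filter. Of the 81 genes, 48 had opposite signs in occasion 2 and in both other occasions. Lcn2 and Car9 were among the 81, at -0.48 and -0.38 (adjusted p = 0.0417 and 0.0346 from edgeR). Neither was called by DESeq2 or with at least 10 counts in every library.

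Ace, angiotensin-converting enzyme, had the smallest p. It was at 5.48 and 9.25 CPM in occasion 2, 27.5 and 22.9 CPM in occasion 1 and 70.6 and 58.9 CPM in occasion 3, so that acLDL-high was the lower gate in occasion 2 and the higher in the others, an interaction of -1.02 on the log2 scale (standard error 0.14, adjusted p = 4.43e-06 from edgeR). Mgp, matrix Gla protein, was at 5.23 and 5.94 CPM against 21.96 and 12.1 CPM in occasion 1 and 29.1 and 15.5 CPM in occasion 3, an interaction of -1.07 (standard error 0.16, adjusted p = 7.42e-05 from edgeR). Mmp3, Dusp6, Fos, Nppb and Cdkn1a, the cell cycle inhibitor p21, were likewise higher in acLDL-high cells in occasions 1 and 3 and near or below 0 in occasion 2. Hes1, a NOTCH target, and Krt14 showed the opposite, with interactions of 0.67 and 0.60, and Irf1 had one of 0.63, while its differences in occasions 1 and 3 had opposite signs.

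**Figure D4:**
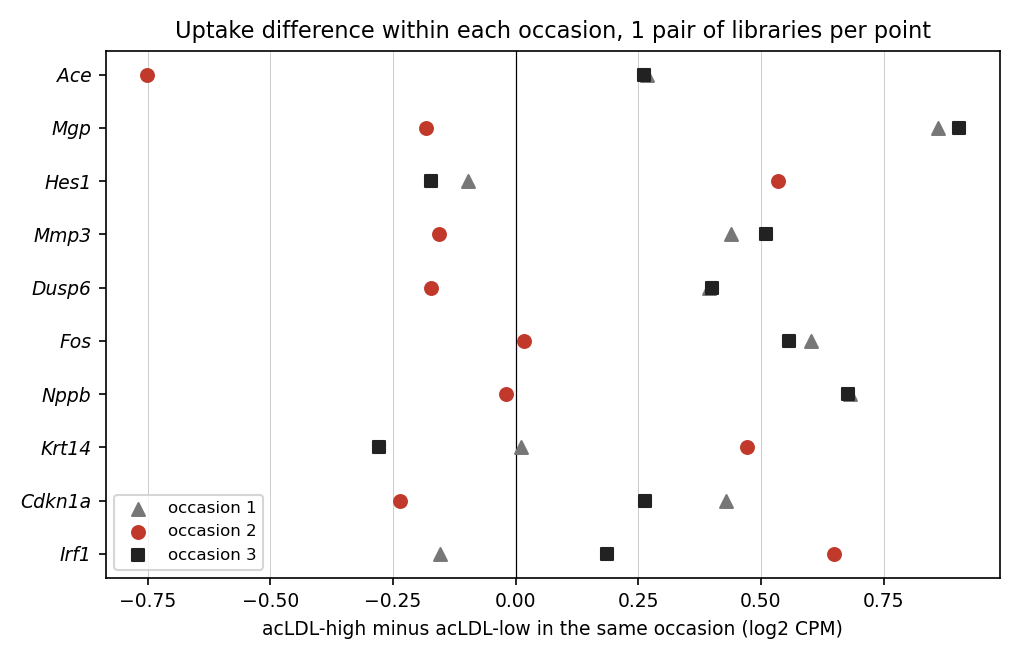
acLDL-high minus acLDL-low difference in log2 CPM within occasions 1 (triangles), 2 (circles) and 3 (squares) for the 10 genes with the smallest interaction p, 1 pair of libraries per point and so without an error bar. Occasion 2 lay apart from both others for every gene shown, which follows from how the genes were chosen. Ace was at -0.75 against 0.27 and 0.26.

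Replication and hypoxia genes were among the 81 called, which made up 0.644% of all genes tested. Of the 27 replication genes 5 were called, all with a negative interaction, among them Cdc6 at -0.50 and E2f1 at -0.52 (adjusted p = 0.0157 and 0.0113 from edgeR). Cdc6 was 0.30 and -0.08 between gates in occasions 1 and 3 and -0.38 in occasion 2. Of the 27 HIF-responsive genes 6 were called, 5 of them negative, among them Egln3 at -0.54 and Bnip3 at -0.61 (adjusted p = 0.000478 and 0.000264 from edgeR). Bhlhe40 was the one with a positive interaction. Within occasions 1, 2 and 3, Egln3 differed between gates by 0.04, -0.45 and 0.13, and Bnip3 by -0.06, -0.59 and 0.11. With at least 10 counts in every library edgeR called 0 of the replication genes and 2 of the HIF-responsive genes, Egln3 and Bnip3 (adjusted p = 0.0373 and 0.0373 from edgeR), and DESeq2 called 0 and 1. Of the 25 G2/M genes 2 were called, both with a positive interaction. Of the 25 immediate early genes 5 were called, 4 of them negative. The counts were 0 and 3 under each of these settings.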

How the data were processed

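RNA of 3 acLDL-high and 3 acLDL-low sorts of mouse 4T1-T cells was measured, with totals of 70263372 to 94216786 counts per library. The authors deposited raw read counts per gene. STAR 2.5.2a, featureCounts 1.4.3-p1 and DESeq2 1.20.0 are named in the submitters' processing notes; the annotation release and the strand setting of counting are not given in the sources used here. The authors' table of fold changes and p-values served only for its gene identifiers (15973 genes), and none of its values was used.

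Groups came from the sample labels and occasions from their replicate numbers. That numbers pair the samples rests on the deviations of same-numbered libraries, which correlated at 0.795 to 0.846, over 0.1 in every pair. Where nothing names separate animals or donors, p-values of the uptake test measure the spread between these sorts of 1 clone. Those of the interaction test do not measure it alone. They rest mostly on variance shared across genes, which gave 62.1 degrees of freedom against 1 residual.

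Counts were filtered and TMM-scaled in edgeR 4.0.16 (R 4.3.3), leaving 12572 genes, and log2 CPM took a prior count of 2. Occasion 2 was described without a test. Uptake was tested within replicate numbers, entered as a block, by the quasi-likelihood method of edgeR, and the interaction of uptake with occasion 2 was tested on 1 residual degree of freedom with variance moderated across genes, both two-sided with an adjusted p threshold of 0.05. Standard errors were derived as the absolute log2 value divided by the square root of edgeR's F statistic. The steps were tested on simulated counts. Named genes were the 12 largest increases and decreases among genes that stood apart with a mean log2 CPM of at least 3, the 10 smallest interaction p-values, and members of 34 gene lists. The members and lists were chosen with earlier results of these data known, and the promoter letter searches after the values were seen. Alternatives were DESeq2 1.42.0, other filters, prior counts, thresholds and scalings, GC and length trends, single gates and single occasions left out.

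Exons of Ftl1, Gbp9, Hif1a, Irf9, Mcm7, mt-Atp6, mt-Nd4l, Pdgfra, Pkm, Rps2, Sned1 and Spp1 overlap another gene on the same strand, and those of Ace, Angpt1, Atf5, Car9, Ccn2, Cxcl10, Has2, Icam1, Krt7, Krt80, Notum, Pyroxd2, Rgs16, Slc2a1, Tnxb and Unc13a, besides others named in the text, overlap one on the opposite strand, so their counts are uncertain.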

Additional observations from a re-analysis of the deposited data

Results flagged for a closer look

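For 10 genes the acLDL-high minus acLDL-low difference in occasion 2 differed from that in occasions 1 and 3 by the interaction term (edgeR, adjusted p from 4.43e-06 for Ace to 0.000228 for Irf1). Each value is the difference in occasion 2 minus the mean of the other occasions, in log2. The signed difference was lower in occasion 2 for Ace (-1.02), Mgp (-1.07), the natriuretic peptide gene Nppb (-0.70), the stromelysin gene Mmp3 (-0.63), Cdkn1a (-0.58), Dusp6 (-0.57) and Fos (-0.56). It was higher for Hes1 (0.67), Irf1 (0.63) and Krt14 (0.60). A lower value is not always a smaller gap, since Ace differed between gates by 0.27, -0.75 and 0.26 in occasions 1, 2 and 3. Within occasions 1, 2 and 3, Mgp differed between gates by 0.86, -0.18 and 0.90, Fos by 0.60, 0.02 and 0.56, and Hes1 by -0.10, 0.54 and -0.17. Each occasion is 1 pair of libraries, and whether sorting, culture or library preparation of that pair differed was not tested.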

How the results depend on the processing

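For the genes that stood apart in occasion 2, 224 upward and 911 downward, use of all genes of the count table gave 367 upward, a 1.5-fold limit 973 and 1706, no limit on size 3879 and 3607, and a mean log2 CPM of at least 3, added after seeing the data, 110 and 209. That filter put the upward share at 34.5%, against 19.7% over all tested genes. Leaving out occasion 1 or 3 gave 232 to 403 upward and 965 to 1155 downward. No setting moved the median over all genes outside -0.05 to 0.06. The HIF-responsive median was -0.80 in acLDL-high and -0.58 in acLDL-low libraries and ran from -0.78 to -0.62 with an occasion left out, the glycolysis median was -0.30 in acLDL-high libraries, and the ribosomal protein median was 0.32 after the length trend was removed. The interferon-stimulated median ran from -0.82 to -0.31 with an occasion left out and was -0.21 at a mean log2 CPM of at least 3. The epithelial median turned to -0.070 without occasion 1 and ran up to 0.31 without occasion 3. Without occasion 1 and without occasion 3 the immediate early median was 0.27 and 0.83, the G2/M median 0.29 and -0.0015, the ATF4 median -0.016 and 0.33, and the YAP and SRF median 0.46 and 0.15. The chemokine median ran from -1.43 without occasion 3 to 0.74 without occasion 1. The cause of these shifts was not tested. For uptake, leaving out the replicate block that the pairing calls for gave 0 genes higher and 0 lower, with 45 of 12329 at an unadjusted p under 0.05, whereas DESeq2 with the block called 385 and 120. With the block and no filter on low counts edgeR called 669 and 263, and with an occasion left out 112 to 602 higher and 14 to 267 lower. For the interaction, edgeR called 32 genes with a positive and 49 with a negative value. DESeq2 called 2 and 9, and a minimum of 10 counts in every library gave 2 and 11. A mean log2 CPM of at least 3 gave 3 and 13, with 0 of the replication genes called under these 3 settings. Nppb and Irf1 lost the call under DESeq2 (adjusted p = 0.066 and 0.0996), DESeq2 gave no adjusted p for Mgp, and Krt14 and Irf1 lost it at 10 counts (adjusted p = 0.0507 and 0.0724 from edgeR). With an occasion left out, the interaction left no residual degree of freedom and gave values only. Depth limits the genes near 1 CPM rather than those named with higher values, and 1 replicate number against 2 limits every statement on occasion 2.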
